A study of Mus musculus with 6 samples.

Results

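The untreated RNA library of this series gives the expression state of mouse embryonic fibroblasts (MEFs) at rest, before any TNFα was added. It is 1 of 4 RNA libraries and 1 of 6 libraries in all. The cells were primary wildtype MEFs taken from embryonic day 13.5 littermates of a C57BL/6x 129 background, grown in serum and used at passage 4. The other RNA libraries were made after 20 ng/ml of TNFα for 1.5, 6 or 24 hr. They supply no level below and enter only through the scale factor applied to all libraries alike. The remaining libraries are an input and a ChIP-seq library of the histone mark H3K4me3, both from untreated MEFs. The RNA was polyadenylated and was sequenced in pairs with its strand kept. All gene symbols of the deposited table were members, with 1 row kept per symbol, which gave 21837 symbols from 27794 rows. Of these symbols, 20200 were represented by a coding (NM_) and 1637 by a noncoding (NR_) RefSeq entry. Levels are RPKM, reads scaled to the length of the transcript and the depth of the library, so that genes of different length can be set side by side. With 1 library there is no replicate and no test, and the library holds 2 value columns, R1 and R2, whose range is given beside the main genes.

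Fibroblasts are the mesenchymal cells that build and remodel connective tissue. They secrete fibrillar collagens, glycoproteins and proteoglycans, which are folded, hydroxylated and trimmed along the secretory route and crosslinked outside the cell. They pull on this matrix through integrins and bundles of actin and nonmuscle myosin, and a fibroblast that makes α-smooth muscle actin in such bundles is called a myofibroblast. They also receive growth factors and cytokines, TNFα among them, which reaches NF-κB through the receptor Tnfrsf1a.

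Many actin cytoskeleton genes are targets of the serum response factor SRF, which binds a sequence known as the CArG box. The boxes are shown because actin and myosin light chain genes stand among the highest genes of this library. Within 250 bases upstream of a RefSeq start (assembly GRCm38.p6), a CArG box was found in 7 of the 59 contractile and adhesion genes above RPKM 1 that had a promoter sequence (11.9%), against 1.77% of all genes above RPKM 1 with one and 1.53% of all 16574 symbols with one. The pattern searched for was CC, a run of A and T bases and GG, with no mismatch allowed. It matches on both strands alike, and its presence in a window is a description and no evidence of binding. By list, 2 of 3 actins and 4 of 33 actin-binding, myosin and stress fibre genes above RPKM 1 with a promoter sequence had a box. Actb, the highest actin, had no promoter sequence, and that of Acta2, the next, held no box. The windows below run 5′ to 3′ on the strand of the gene, with the box in capitals.
Myl6, chr10:128493030-128493079, minus strand: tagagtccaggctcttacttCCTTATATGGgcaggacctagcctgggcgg
Myl9, chr2:156775283-156775332, plus strand: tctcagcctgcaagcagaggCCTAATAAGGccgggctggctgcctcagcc
Actg1, chr11:120348556-120348605, minus strand: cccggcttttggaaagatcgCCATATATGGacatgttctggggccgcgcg
Cnn2, chr10:79988524-79988573, plus strand: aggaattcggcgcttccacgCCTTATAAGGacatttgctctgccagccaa
Acta1, chr8:123894819-123894868, minus strand: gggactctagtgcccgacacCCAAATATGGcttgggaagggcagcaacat
Vcl, chr14:20929151-20929200, plus strand: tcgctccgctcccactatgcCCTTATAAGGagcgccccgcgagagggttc
Srf, chr17:46556195-46556264, minus strand: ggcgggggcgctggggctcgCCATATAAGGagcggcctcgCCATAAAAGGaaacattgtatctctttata
Of these genes, Myl6 was the highest at RPKM 653 and Srf itself, whose window holds 2 boxes, the lowest at 2.18.

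Promoters also differed in CpG dinucleotides, which are depleted in most of the genome and kept in CpG islands. The median ratio of observed to expected CpG in the 250 upstream bases was 0.78 for genes above RPKM 1 and 0.18 for genes listed at 0. A gene with several promoter sequences entered each median with its highest ratio. The 150 bases before the start are shown, with each CpG in capitals, for the highest gene with a promoter sequence among the ribosomal proteins, the matrix glycoproteins and the leukocyte markers, since these lists differed in the H3K4me3 mark described last.
Rpl41, chr10:128549169-128549318, minus strand: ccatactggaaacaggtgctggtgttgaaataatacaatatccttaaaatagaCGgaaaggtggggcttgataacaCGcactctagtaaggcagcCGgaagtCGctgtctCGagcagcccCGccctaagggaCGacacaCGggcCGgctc
Sparc, chr11:55420081-55420230, minus strand: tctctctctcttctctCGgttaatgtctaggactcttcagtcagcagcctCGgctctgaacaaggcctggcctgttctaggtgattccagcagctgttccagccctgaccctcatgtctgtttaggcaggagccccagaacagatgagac
Lyz2, chr10:117282273-117282422, minus strand: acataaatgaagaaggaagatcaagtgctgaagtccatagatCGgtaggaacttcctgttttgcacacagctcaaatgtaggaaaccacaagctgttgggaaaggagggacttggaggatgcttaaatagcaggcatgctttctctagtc
The window of Rpl41 holds 9 CpGs, that of Sparc 2 and that of Lyz2 1. These genes stand for their lists and not for marked and unmarked promoters. Rpl41 could not be placed on the annotation used for the mark. Sparc, with its low CpG ratio of 0.22, had a peak of the mark with 3242 tags and 117-fold enrichment. Lyz2 had no peak. A link between CpG content and the mark was not tested. Over the lists, the median ratio among members above RPKM 1 was 0.85 for ribosomal proteins, 0.59 for matrix glycoproteins and 0.21 for leukocyte markers.

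The library had a short, steep top and a long tail. Of the 21837 symbols, 6444 were above RPKM 1, the threshold the study uses (29.5%), 1117 were above 10 and 122 above 100 (0.559%). A further 4896 symbols were listed at 0 in both columns (22.4%). The median was 0.22 over all symbols and 3.06 over those above RPKM 1. Of coding symbols 30.6% were above RPKM 1, and of noncoding symbols 16.2%. The 10 highest symbols held 15.2% of the summed RPKM, the 100 highest 41.9% and the 1000 highest 74.8%. High genes also had a short exonic length, taken as the union of all annotated exons of a gene and not as a transcript length. Its median was 1442.5 bases above RPKM 100 and 3539.5 bases between RPKM 1 and 10. The columns R1 and R2 differed by a median of 0.07 on the log2 scale among genes above RPKM 1, and by more than 2-fold for 120 of them. The largest such differences above RPKM 10 were at Gm11517 (20.8 and 220.4), Gm6525 (2.19 and 19.6) and Ttll3 (11.5 and 59.6).

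**Figure D1:**
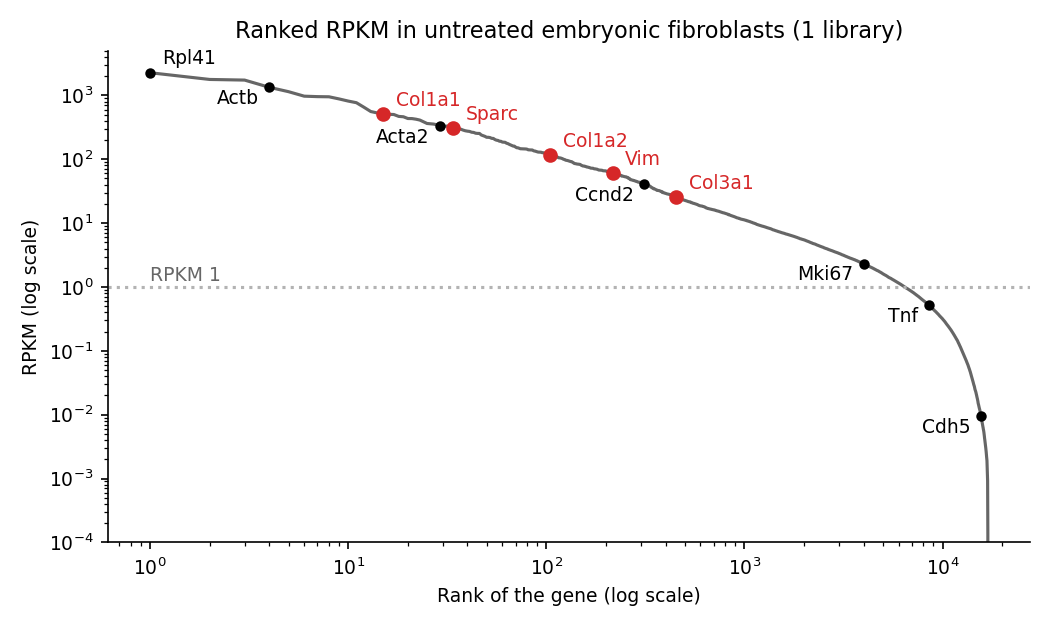
RPKM of each gene (log scale) against its rank (log scale) in the untreated library. Each of the 5 fibroblast markers (red) lies among the 453 highest genes, the replication marker Mki67 lies at RPKM 2.31, and the endothelial marker Cdh5 at 0.0096.

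The top of the ranking was made of ribosomal proteins, actin cytoskeleton, iron storage and matrix genes. Rpl41 was the highest at RPKM 2265, followed by Rplp1 at 1776, the predicted gene Gm15427 at 1736, cytoplasmic β-actin (Actb) at 1338 and Rpl28 at 1143. The galactose-binding lectin Lgals1 followed at 972 and Rps15 at 951. The ferritin light chain Ftl1 stood at 768, the myosin light chain Myl6 at 653, the collagen Col1a1 at 514, the cytokine Mif at 469, the proteoglycan Bgn at 435 and the actin-sequestering Tmsb10 at 411. Ribosomal proteins took 12 of the 25 highest places, among them Rpsa at 559, Rps24 at 532, Rpl35 at 506, Rps26 at 424 and Rpl13a at 363. Copies of abundant genes make some of these values uncertain, since near-identical sequences share reads. The ferritin entry Ftl2, at 433, is 1 such case, and among the 100 highest symbols 7 are predicted Gm genes.

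The 5 markers that define the label were all present, which checks the label and is no test of cell identity. Col1a1, the α1 chain of type I collagen, had RPKM 514 (527 in R1 and 501 in R2) and ranked 15. Sparc, a collagen-binding glycoprotein, had 310 (321 and 300) and ranked 34. Col1a2, the partner chain of Col1a1, had 117 (120 and 114) and ranked 105. The intermediate filament Vim had 60.4 (57.9 and 62.8) and ranked 216. Col3a1, the chain of type III collagen, had 25.4 (26.6 and 24.2) and ranked 453, which is still within the highest 2.07% of symbols. On mm9 these genes span chr11:94797538-94814356 (Col1a1), chr11:55208002-55233582 (Sparc), chr6:4454814-4491543 (Col1a2), chr2:13495554-13504453 (Vim) and chr1:45368383-45406551 (Col3a1), and each had a peak of H3K4me3, a histone mark of active gene starts, within 1 kb of an annotated start, as did 90.0% of all genes above RPKM 1 that could be placed. Of 18 wider fibroblast and mesenchymal markers, which include these 5, 13 were above RPKM 1 (72.2%, against 29.5% of all symbols), and without the 5 it was 8 of 13 (61.5%). The surface glycoprotein Thy1 was at 212, S100a4 at 59.6 and the stem cell antigen Ly6a at 18.2. Pdgfra was just above the threshold at 1.31 and the dermatopontin gene Dpt just below it at 0.81. Pdpn was at 0.65, Fap at 0.61, Cd34 at 0.14 and Nt5e, which encodes CD73, at 0.12.

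Matrix genes held 4.60% of the summed RPKM with 160 genes, of which 110 were above RPKM 1. Among the fibrillar collagens 8 of 11 were, with a median of 14.4. After the type I chains came Col5a1 at 61.9, Col3a1, Col5a2 at 23.9 and Col5a3 at 14.4. The type I chains were not level, since Col1a1 was 4.40 times Col1a2 in RPKM (4.40 in R1 and 4.41 in R2). Cartilage collagens were low, with Col2a1 at 0.12 and Col11a2, the next below the threshold, at 0.54. Col11a1 was the next above it at 2.35. Of the other collagens 9 of 25 were above RPKM 1 (36.0%, against 29.5% of all symbols). These were led by the microfibrillar chains Col6a2 at 95.9 and Col6a1 at 78.0 and by the basement membrane chains Col4a2 at 21.6 and Col4a1 at 11.9. The basement membrane pair Col4a3 (0.0051) and Col4a4 (0.018) was almost silent beside them. Col18a1 was the next above the threshold at 4.60 and Col8a2 the next below it at 0.66.

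Matrix glycoproteins were above RPKM 1 for 36 of 49 genes, with a median of 5.85. Sparc was followed by osteopontin (Spp1) at 221 (211 in R1 and 230 in R2), a phosphoprotein first known from bone. Fibronectin (Fn1) stood at 114, thrombospondin 1 (Thbs1) at 72.5, fibulin 2 (Fbln2) at 72.3 and Efemp2, an elastic fibre protein, at 57.8. Among laminin chains Lamb2 was at 12.7, Lama5 at 5.63, Lamb1 at 5.14 and Lama4 at 4.74, while the epithelial chains Lama3 and Lamb3 were at 0.033 and 0.011. Fibrillin 1 (Fbn1) was at 12.9, the fibrillin of embryonic tissue Fbn2 at 7.80 and elastin (Eln) at 7.68. Emilin2 was just above the threshold at 1.01 and Nid2 just below it at 0.86. The proteoglycans, of which 15 of 23 were above RPKM 1, were dominated by biglycan (Bgn) at 435, with perlecan (Hspg2) at 28.5 and Podn at 12.1 next. The other small leucine-rich proteoglycans were far lower, with decorin (Dcn) at 2.68, Fmod at 2.22, Ogn at 1.92 and lumican (Lum) at 0.86.

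Genes that process collagen were also high. Of 23, 20 were above RPKM 1 (87.0%, against 29.5% of all symbols) and the median was 11.0. Each of these 20 had an H3K4me3 peak, against 90.0% of all placed genes above RPKM 1. Pcolce, which enhances cleavage of the procollagen end, was at 132 and the isomerases Ppib and Fkbp10 at 74.8 and 54.3. Bmp1, the gene of the procollagen C-proteinase, was at 53.4, a value from a noncoding RefSeq entry of the gene. The collagen chaperone Serpinh1 was at 47.8 and the prolyl hydroxylase subunit P4hb at 34.6. Lysyl oxidases, which crosslink collagen and elastin, ran from Loxl1 at 29.2 through Loxl2 at 16.5 and Lox at 11.7 to Loxl4 at 0.48. Pcolce2 (1.26) and Plod2 (0.60) lay on the 2 sides of the threshold. Proteases and their inhibitors were above RPKM 1 for 22 of 29 genes. The membrane protease Mmp14 was highest at 145, 7.82 times the gelatinase Mmp2 (18.6) that it activates. The lysosomal protease Ctsd was at 123, the inhibitors Timp1 and Timp2 at 106 and 27.9, and Serpinf1 at 70.0. The inflammatory proteases Mmp13 and Mmp9 were at 0.66 and 0.55, Plau at 1.89 was the next above the threshold, and Adamts5 at 0.78 the next below.

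Contractile and adhesion genes held 5.83% of the summed RPKM with 96 genes, of which 72 were above RPKM 1. The order of the actins was Actb at 1338, α-smooth muscle actin (Acta2) at 332 (331 in R1 and 333 in R2), Actg1 at 129 (103 and 156), the γ-smooth muscle actin Actg2 at 33.9, skeletal α-actin (Acta1) at 24.7 (12.5 and 37.0) and cardiac α-actin (Actc1) at 0.26. Actins are near-identical in coding sequence, and Actg1 and Acta1 were the members whose columns stood apart. Of 38 actin-binding, myosin and stress fibre genes, 37 were above RPKM 1 and 13 above RPKM 50. They included Myl6, Tmsb10, the regulatory light chain Myl9 at 197, cofilin (Cfl1) at 145, transgelin (Tagln) at 120, the tropomyosins Tpm1 and Tpm2 at 93.5 and 66.0, nonmuscle myosin Myh9 at 90.7, Tmsb4x at 79.3, zyxin (Zyx) at 70.6, calponin 2 (Cnn2) at 67.3, filamin A (Flna) at 65.8 and profilin (Pfn1) at 57.3. Myh9 was 8.35 times its paralogue Myh10 (10.9). The late smooth muscle genes were lower, with calponin 1 (Cnn1) at 8.54, smooth muscle myosin (Myh11) at 2.41 and the kinase Mylk at 0.86, and the smooth muscle coactivator Myocd was at 0.054.

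Every one of 16 intermediate filament and tubulin genes was above RPKM 1. Lamin A (Lmna) was at 73.5 and lamin B1 (Lmnb1) at 1.01, the highest and the lowest of the list. The α-tubulins Tuba1b and Tuba1a were at 64.6 and 59.7, beside Vim at 60.4, and the progenitor filament nestin (Nes) was at 12.7. Of the regulators, the SRF coactivator Mkl1 was at 7.01, the TEAD factors Tead2 and Tead3 at 6.36 and 5.99, and their coactivator Yap1 at 3.09. Srf was at 2.18. Mkl2 (1.03) and Tead4 (0.37) lay on the 2 sides of the threshold. Of the integrin subunits 6 of 26 were above RPKM 1 (23.1%, against 29.5% of all symbols). These were the fibronectin receptor chain Itga5 at 20.4, Itgb5 at 13.5, the common chain Itgb1 at 11.2, the collagen receptor chain Itga11 at 7.04, Itgb3 at 3.43 and Itga7 at 3.40. The vitronectin receptor chain Itgav was just below the threshold at 0.81, and the other collagen receptor chains Itga1 and Itga2 were at 0.18 and 0.0077.

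**Figure D2:**
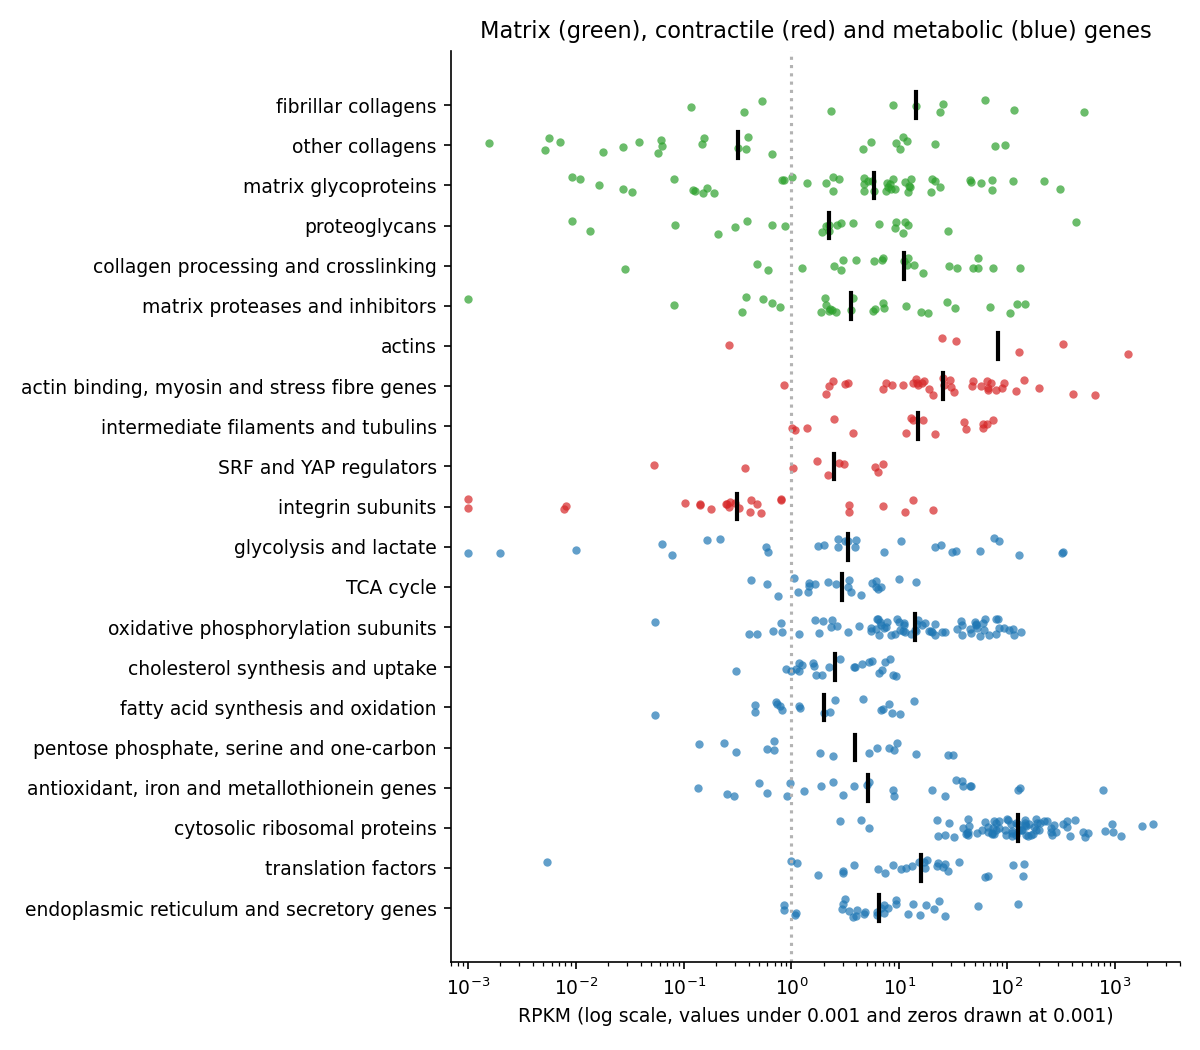
RPKM (log scale) of each member of the matrix, contractile and metabolic lists, with 1 point per gene and a black bar at the median of a list. The dotted line marks RPKM 1. Ribosomal proteins lie highest with a median of 127, and integrin subunits and the other collagens have medians of 0.31 and 0.32.

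Metabolic and biosynthetic genes held 29.6% of the summed RPKM, most of it translation. The 79 cytosolic ribosomal proteins alone held 22.3%, were all above RPKM 1, had a median of 127 and ranged down to Rpl21 at 2.80. Ribosomal protein genes have many processed copies, and their columns could stand apart, as for Rps19 (107 in R1 and 185 in R2) and Rpl37a (173 and 99.9). Translation factors were above RPKM 1 for 26 of 28 genes, led by Eef2 at 144, Eef1a1 at 141 and Tpt1 at 114, with Eef1g at 66.0 and Eif5a at 61.9. The cap-binding protein Eif4e was low among them at 1.13. The muscle and neuron isoform Eef1a2, at 0.0054, was almost silent beside Eef1a1. Of 30 endoplasmic reticulum and secretory genes 28 were above RPKM 1, with the calcium-binding Rcn3 at 126, calreticulin (Calr) at 53.8 and the collagen regulator Creb3l1 at 26.8.

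At the enolase, pyruvate kinase, aldolase and lactate dehydrogenase steps of glycolysis 1 isoform stood far above another. Of 29 genes 20 were above RPKM 1, and 6 were above RPKM 50. Enolase Eno1 was at 330, 32.0 times the neuronal Eno2 (10.3). Pyruvate kinase Pkm2 was at 322 and the liver enzyme Pklr at 0.010. Aldolase Aldoa was at 129, 225 times Aldoc (0.58). Tpi1 followed at 84.1, Gapdh at 75.7 (90.3 in R1 and 61.0 in R2) and Gpi1 at 55.8. Lactate dehydrogenase Ldha, at 24.6, was 7.41 times Ldhb (3.32). The first step was low, since hexokinases Hk1 and Hk2 were at 3.88 and 2.0 and the glucose transporter Slc2a1 at 3.14. Slc2a4, the transporter that insulin moves, was at 0.063. Among lactate exporters Slc16a3 was at 7.22 and Slc16a1 at 0.16.

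Oxidative phosphorylation subunits were above RPKM 1 for 67 of 73 genes, with a median of 14.2 and 18 genes above RPKM 50. The ATP synthase subunit Atp5d was highest at 135, followed by the complex I subunits Ndufa3 and Ndufv3 at 115 and 113, the complex III subunit Uqcrq at 104 and Atp5g1 at 93.7. Ubiquitous isoforms exceeded the tissue isoforms of the same subunit, as for Cox4i1 (78.3) over Cox4i2 (0.40) and Cox6a1 (84.1) over the muscle isoform Cox6a2 (0.82). TCA cycle genes were lower, with 19 of 22 above RPKM 1, a median of 2.96 and a maximum of 14.2 at Mdh2. Fh1 (1.07) and Dld (0.75) lay on the 2 sides of the threshold. Of 24 cholesterol genes 21 were above RPKM 1, but none was above 10. Among them the synthase Fdps was at 8.75, the thiolase Acat2 at 8.30 and the regulator Srebf2 at 7.44. Of 19 fatty acid genes 12 were above RPKM 1, led by Elovl1 at 13.7 and by Scd2 at 10.2, which was 4.00 times Scd1. Serine synthesis was led by Phgdh at 28.1, beside Pgls of the pentose phosphate pathway at 31.4, in a list with 10 of 16 genes above RPKM 1. The nucleotide enzyme Tyms of that list was at 0.70. Among antioxidant and iron genes 19 of 26 were above RPKM 1. Ftl1 exceeded the ferritin heavy chain Fth1 (45.7) by 16.8 times. Metallothionein Mt1 was at 131, 6.52 times Mt2 (20.1), the lipid peroxidase Gpx4 was at 127, and mitochondrial superoxide dismutase Sod2 was at 0.60 beside cytosolic Sod1 at 38.5.

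Cell cycle genes showed high D cyclins and low mitotic genes. Of 32 proliferation genes 17 were above RPKM 1 (53.1%, against 29.5% of all symbols), with a median of 1.05. Cyclin Ccnd2 was at 41.1, 6.23 times Ccnd1 (6.59), Ccnd3 at 22.1 and their kinase Cdk4 at 16.5. The replication and mitosis genes were between Mcm7 at 2.71 and Bub1 at 0.084, with Mki67 at 2.31, Pcna at 1.21, Top2a at 0.93, Ccnb1 at 0.47 and Cdk1 at 0.41. Cdk2 (1.03) and Ccna2 (0.94) lay on the 2 sides of the threshold. All 32 genes had an H3K4me3 peak at a start, against 52.8% of all genes that could be placed on the annotation. Of 16 inhibitors and p53 targets 11 were above RPKM 1. The p53 target Cdkn1a was highest at 39.9 (40.1 in R1 and 39.7 in R2), Gadd45g was at 18.3, and the senescence-associated locus genes Cdkn2a and Cdkn2b were at 8.54 and 5.57. Gadd45a was the next above the threshold at 2.09 and Cdkn2d the next below it at 0.95. These levels are averages over the culture, so that few cycling cells and low levels in each cell cannot be told apart, and the same holds for every cell type marker below.

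Of 50 mesenchymal transcription factors, 20 were above RPKM 1. The nuclear factor Nfix was highest at 30.0 and the limb and skin factor Tbx15 next at 11.1. Msx1 (8.48), Foxp1 (8.18), Prrx2 (5.47) and Prrx1 (4.69) followed. The factors of epithelial-mesenchymal transition were present at low levels, with Snai1 at 4.62, Twist2 at 3.21, Zeb1 at 2.60, Snai2 at 2.45 and Twist1 at 1.66. Of the limb factors, hindlimb Pitx1 was at 4.08 and Tbx4 at 1.18, and forelimb Tbx5 at 0.43. Tbx4 was just above the threshold and Zeb2, at 0.97, just below. The cardiac factors Gata4 and Nkx2-5 were at 0.026 and 0. All 19 factors above RPKM 1 that could be placed on the annotation had an H3K4me3 peak, against 90.0% of all placed genes above RPKM 1.

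Hox genes, which record position along the body axis, were all low but differed by cluster. Each of the 39 genes was above 0, the highest was Hoxb9 at 3.55 and the median 0.74. Above RPKM 1 were 1 of 11 genes of cluster A, 6 of 10 of cluster B, 4 of 9 of cluster C and 2 of 9 of cluster D. Together 13 of 39 were above it, against 29.5% of all symbols. After Hoxb9 the highest were middle paralogues of clusters B and C, with Hoxc6 at 3.20, Hoxc8 at 2.72, Hoxb6 at 2.59, Hoxb4 at 2.37 and Hoxc9 at 2.11. Other middle paralogues were low, such as Hoxa5 at 0.51, Hoxa6 at 0.45, Hoxb7 at 0.32 and Hoxd8 at 0.16. The anterior genes Hoxb1 at 0.0027 and Hoxd1 at 0.012 were among the lowest. The most posterior genes divided, since Hoxb13, Hoxc12 and Hoxc13 were at 0.017, 0.020 and 0.0091 but Hoxd13 was at 1.39 and Hoxa13 at 0.33. In cluster A the gene above the threshold was Hoxa9 at 1.1 and Hoxa3, at 0.94, was just below it. An H3K4me3 peak lay at 19 of the 38 Hox genes that could be placed, against 52.8% of all placed genes. Some of these genes share a broad peak, so the count is of genes and not of separate peaks. Hoxa7, Hoxa9 and Hoxa10 share 1 of 22166 bases, Hoxa11 and Hoxa13 1 of 25026, and Hoxd10 and Hoxd11 1 of 16752. Within cluster B, Hoxb4, Hoxb5, Hoxb6 and Hoxb8 were above RPKM 1 with no peak.

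**Figure D3:**
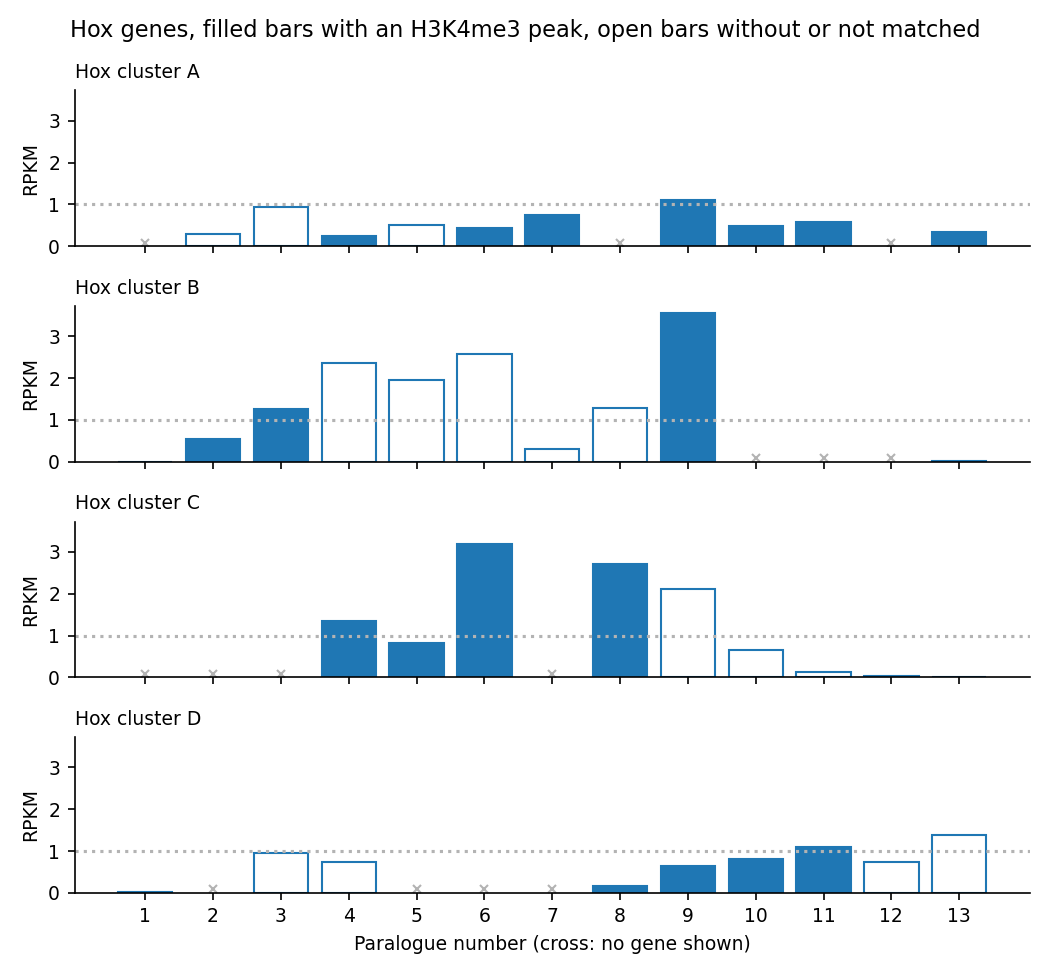
RPKM of the Hox genes of each cluster against the paralogue number (1 anterior, 13 posterior). Filled bars have an H3K4me3 peak within 1 kb of a start, open bars have none or could not be placed, crosses mark numbers with no gene shown, and the dotted line is RPKM 1. The highest bar is Hoxb9 at 3.55.

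Markers of other cell types that a whole-embryo culture could hold were mostly below the threshold. Over 15 lists, 23 of 173 genes were above RPKM 1 (13.3%, against 29.5% of all symbols), 44 were listed at 0, and together they held 0.18% of the summed RPKM. The smooth muscle genes Acta2 (332), Actg2 (33.9) and Cnn1 (8.54) were counted as contractile and Spp1 (221) as matrix, outside these lists. None was above RPKM 1 among 20 skeletal muscle, 10 neuron, 10 endothelial, 10 erythroid, 10 hepatocyte, 12 pluripotency and germ cell and 5 mesothelial markers. The muscle determination gene Myod1, albumin (Alb), the adult β-globins Hbb-b1 and Hbb-b2 and the epithelial adhesion gene Epcam were listed at 0. The endothelial cadherin Cdh5 was at 0.0096 and the pluripotency factors Pou5f1 and Nanog at 0.081 and 0.026. Among 14 epithelial markers 1 was above the threshold, Krt19 at 2.23. Single genes were above it for cardiac muscle (Tnni3 at 2.70), adipocytes (Fabp4 at 1.25) and glia and neural crest (Gfap at 1.1). For smooth muscle and pericytes 6 of 10 markers were above RPKM 1, led by Cspg4 at 3.76, Des at 3.71 and Lmod1 at 3.34, while the pericyte genes Rgs5, Kcnj8 and Abcc9 were at 0.093, 0.026 and 0.0093. For cartilage these were Prg4 at 1.38 and Sox9 at 1.13 among 16, and for bone Runx2 at 2.38 and Ifitm5 at 1.24 among 10, with the osteoblast genes Sp7 and Ibsp at 0.019 and 0.

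Of 15 leukocyte markers 9 were above RPKM 1, the same share as of the smooth muscle and pericyte markers. Their median was 3.44 (3.41 in R1 and 3.48 in R2), against 2.39 for the smooth muscle and pericyte list, and 4 of them were above RPKM 10. Lysozyme Lyz2 was at 26.4 (24.6 and 28.1), the lysosomal membrane gene Laptm5 at 25.2 (25.8 and 24.5), and the receptor adaptors Fcer1g and Tyrobp at 18.4 and 10.7. Lyz1 was at 7.79, Cd68 at 7.07, Coro1a at 6.98, the macrophage growth factor receptor Csf1r at 3.44 and Aif1 at 2.51. The next below the threshold was Cd14 at 0.73. The macrophage genes Itgam and Emr1 were at 0.48 and 0.31, the pan-leukocyte gene Ptprc at 0.16, and the T cell gene Cd3e at 0. The list summed to RPKM 110 (111 in R1 and 110 in R2), against 44.0 for the 158 markers of the other lists together. These comparisons depend on how genes were assigned to lists. Acta2 alone, at 332 and counted as contractile, exceeds both sums, and it is left out of the smooth muscle median of 2.39. Only Cd14 of the 15 leukocyte markers, itself below the threshold, had an H3K4me3 peak at a start, so that none of the 9 expressed members had one, against 90.0% of all placed genes above RPKM 1. Within 5 kb, 3 of the 9 had a peak (Cd68, Coro1a and Aif1). The complement genes C1qb at 72.5 and C1qa at 50.5, the apolipoprotein Apoe at 140, Lsp1 at 72.4 and Cd52 at 10.3 had no peak within 5 kb. They were picked from the genes without such a peak after their values were seen, so their lack of one follows from that choice. The part of other cells in these values was not tested.

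**Figure D4:**
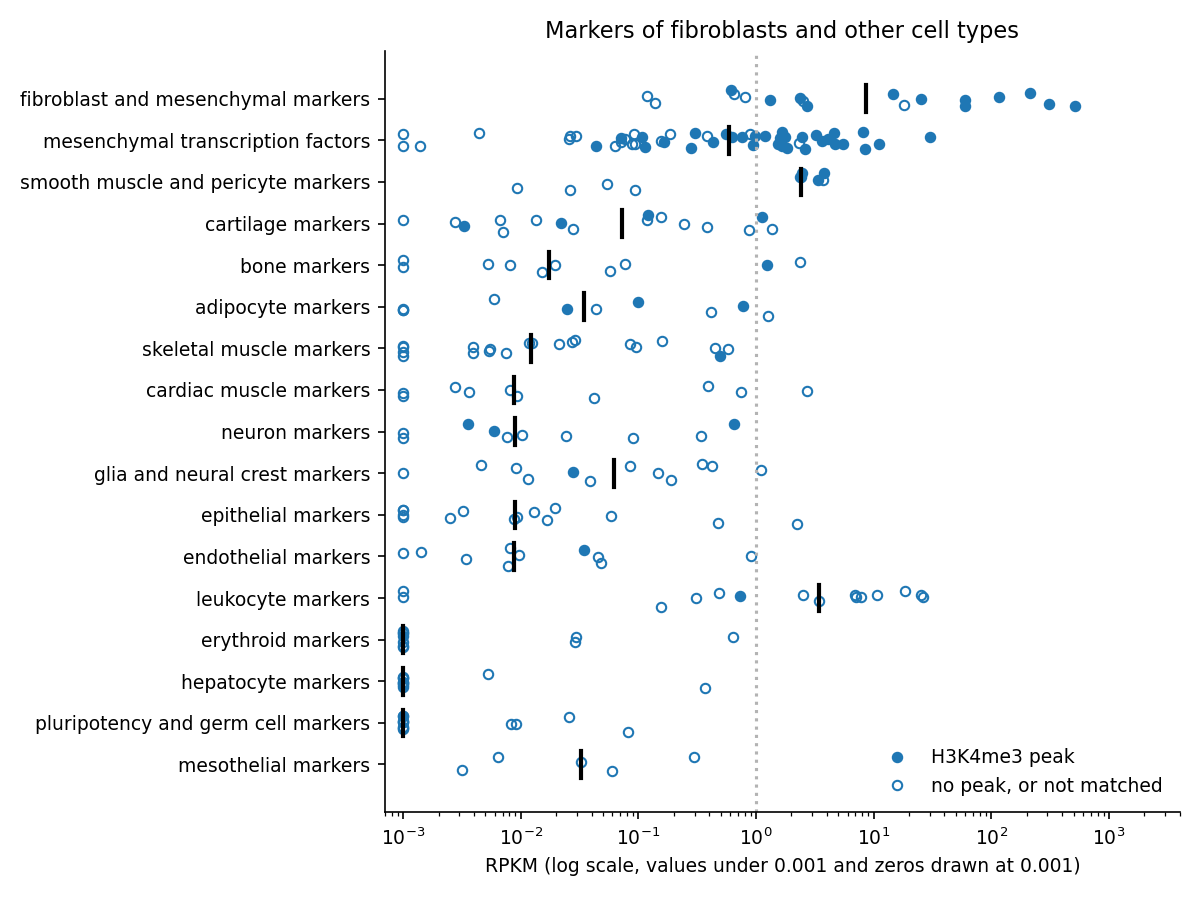
RPKM (log scale) of markers of fibroblasts, mesenchymal transcription factors and 15 other cell types, with 1 point per gene and a black bar at the median. Filled points have an H3K4me3 peak within 1 kb of a start, the dotted line is RPKM 1, and zeros are drawn at 0.001. Leukocyte markers have a median of 3.44 with open points throughout above RPKM 1, while the medians of the skeletal and cardiac muscle, neuron, epithelial and endothelial lists run from 0.0088 to 0.012.

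Signalling genes held 0.71% of the summed RPKM with 255 genes, of which 105 were above RPKM 1 (41.2%, against 29.5% of all symbols). Growth factor receptors were above it for 12 of 24 genes, led by the TAM receptor Axl at 14.6 and Pdgfrb at 14.5, which was 11.1 times Pdgfra. Fgfr1 was at 8.27, Fgfr2 at 0.42 and Fgfr4 at 0.0077. Igf1r was at 3.80, Egfr at 1.52, the insulin receptor Insr at 0.53, and Kit at 0. Mertk was the next below the threshold at 0.66. Of 29 growth factors and cytokines 12 were above RPKM 1 (41.4%, against 29.5% of all symbols). Igf2, the fetal insulin-like growth factor, was highest at 33.1, 21.4 times Igf1 (1.55). Pleiotrophin (Ptn) was at 19.2, Pdgfa, the ligand for Pdgfra, at 11.9 and Pdgfb at 0.17, and Vegfa at 11.3. The Axl ligand Gas6 was at 6.97, the macrophage growth factor Csf1 at 6.42 and the chemokine Cxcl12 at 5.92. The fibroblast growth factors Fgf2, Fgf7 and Fgf10 were at 0.11, 0.12 and 0.17. Pdgfc was just above the threshold at 1.25 and Nrg1 just below it at 0.90. IGF binding proteins were above RPKM 1 for 6 of 7 genes, with Igfbp5 at 26.1, Igfbp4 at 17.1, Igfbp7 at 8.16 and Igfbp1 at 0.

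In the TGF-β and BMP pathway 15 of 38 genes were above RPKM 1 (39.5%, against 29.5% of all symbols). The follistatin-like glycoprotein Fstl1 was highest at 53.3. Of the ligands, Tgfb3 at 28.3 was 1.70 times Tgfb1 (16.7), Tgfb2 was at 2.43, activin A (Inhba) at 7.80, Bmp4 at 3.28 and Bmp7 at 0. The receptors were low, with Tgfbr2 at 1.98 and Tgfbr1 at 0.32, and so were the signal carriers Smad3 at 1.50, Smad4 at 0.86 and Smad2 at 0.54. Inhbb (1.12) and Id2 (0.90) lay on the 2 sides of the threshold. Of 44 Wnt genes 10 were above RPKM 1 (22.7%, against 29.5% of all symbols). They included the secreted antagonist family members Dkk3 (7.33), Dkk2 (3.50) and Sfrp1 (1.38), the receptor Fzd2 (7.14) and the coreceptor Lrp5 (3.24). The others were β-catenin Ctnnb1 (5.74), the factors Tcf7l1 (6.99) and Tcf7l2 (3.20), Axin1 (2.14) and the ligand Wnt5a (1.1). Lrp6 was just below at 0.99, and Axin2, a gene that canonical Wnt signalling induces, was at 0.18. Of 25 Hedgehog and Notch genes 13 were above RPKM 1 (52.0%), led by Hes1 at 3.80, Smo at 3.13 and Notch1 at 2.59. The Hedgehog target genes Gli1 and Ptch1 were at 0.20 and 0.31, and the ligand Shh at 0.

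Genes of the TNF route lay mostly above RPKM 1 at rest, and inflammatory mediators mostly below it. Of 22 receptors, adaptors and NF-κB genes 13 were above RPKM 1 (59.1%, against 29.5% of all symbols). All 22 had an H3K4me3 peak, against 52.8% of all placed genes. Tnfrsf1a was highest at 6.89, 12.2 times Tnfrsf1b (0.56). Nfkb2 was at 5.01, Rela at 4.72, Tab1 at 4.16, the inhibitor Nfkbia at 3.73, the adaptors Traf2 and Tradd at 2.44 and 2.10, the kinase Ikbkb at 2.18 and Nfkb1 at 1.35. Ripk1 was just above the threshold at 1.18 and Map3k7 just below it at 0.72, and Rel and the feedback gene Tnfaip3 were at 0.094 and 0.083. Of 25 inflammatory mediators 3 were above RPKM 1 (12.0%, against 29.5% of all symbols). They were the chemokines Ccl7 at 3.17, Ccl2 at 2.18 (1.38 in R1 and 2.98 in R2) and Cxcl5 at 1.03 (0.86 and 1.20). A peak lay at 5 of the 25, against 52.8% of all placed genes. Cx3cl1 was just below the threshold at 0.94, Tnf itself was at 0.51, Il6 at 0.0067, Il1b at 0.033, Nos2 at 0.0028 and Lcn2 at 0. Among 25 innate and interferon genes 10 were above RPKM 1, led by Irf3 at 8.94, Isg15 at 3.78 and Ifnar2 at 3.74. Oas1a (1.05) and Ifit3 (0.99) lay on the 2 sides of the threshold, the Toll-like receptor Tlr4 was at 0.039, and the interferon gene Ifnb1 was listed at 0. Immediate-early genes, which serum and stress induce within minutes, were above RPKM 1 for 11 of 16 (68.8%). All 16 had a peak, against 52.8% of all placed genes. Jund was highest at 19.8, 9.77 times Jun (2.02), with Fosl2 at 5.64, Egr1 at 3.42 and Fos at 0.36. Dusp1 was just above the threshold at 1.27 and Klf2 just below it at 0.86.

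Noncoding entries held 6.79% of the summed RPKM, among them the rows kept for the coding genes Bmp1, Gnas and Atf5. The highest was Mir675 at 880 (932 in R1 and 828 in R2), a microRNA precursor that lies on the same strand inside H19, so its value cannot be told from that of its host. Malat1 followed at 502, H19 at 463, Mir682 at 296 and LOC624853 at 279 (189 and 369), then the maternally expressed Meg3 at 273, Gm15772 at 265, Mir715 at 191, Tpt1p at 125 and Gm11517 at 121. Malat1 was 5.18 times Neat1 (96.9), the RNA of paraspeckles. The ribonucleoprotein RNAs Rmrp and Rpph1 were at 89.1 and 83.8, although both are made without a poly(A) tail in textbook accounts. Of 22 long noncoding RNAs 16 were above RPKM 1. Snhg3 was just above the threshold at 1.31, Nespas just below at 0.91, and Xist was at 0.011. Imprinted genes were above RPKM 1 for 13 of 20 (65.0%, against 29.5% of all symbols). H19 was 14 times its neighbour Igf2, Gnas was at 20.6 and Rtl1 at 11.9. In the cluster of Meg3, Rian and Mirg were at 10.0 and 11.5 and the paternally expressed Dlk1 at 0.76. Mest was the next above the threshold at 1.56.

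H3K4me3 marks the start of genes that are active or poised, and here it was an independent readout from untreated MEFs with 1 ChIP library. Of 21837 symbols 21057 could be placed on the GENCODE annotation of mm9, and 11126 of these (52.8%) had a peak within 1 kb of an annotated transcript start. The share rose steeply at the low end of RNA. It was 2.20% (exact 95% interval 1.80% to 2.66%) for the 4682 genes listed at 0, 23.8% (22.5% to 25.1%) above 0 and up to RPKM 0.1, and 74.0% (72.9% to 75.1%) from 0.1 to 1. It was 89.8% (89.0% to 90.6%) from 1 to 10 and 91.3% (89.4% to 93.0%) from 10 to 100, intervals that overlap. Above RPKM 100 it was 84.7% (77.0% to 90.7%). These intervals cover counting error over genes only. Symbols above RPKM 100 with no peak included the predicted Gm15427, Gm5506 and Gm9846, the microRNA entries Mir675 and Mir682 and the ferritin entry Ftl2. H19, Spp1, Myl9 and Apoe had none either. The share above RPKM 100 thus mixes kinds of entry, and no trend at the highest genes is read from it. Over all placed genes above RPKM 1 the share was 90.0%. Among genes with a peak, the peaks held a median of 512 tags at genes listed at 0, 1290 at genes of RPKM 1 to 10 and 1780 above 100.

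**Figure D5:**
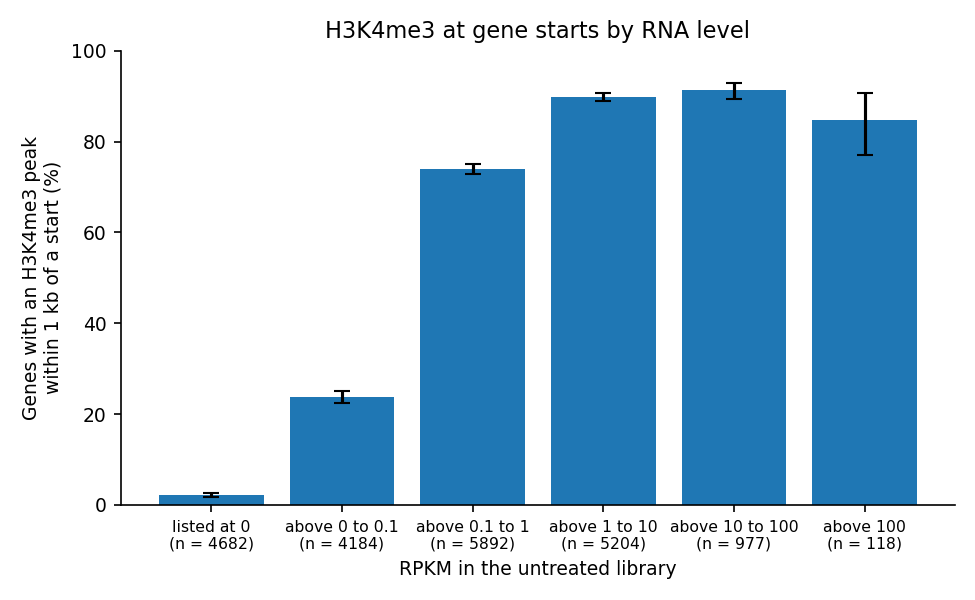
Percentage of genes with an H3K4me3 peak within 1 kb of an annotated start (y axis) for each range of RPKM in the untreated library (x axis, with the number of genes). Bars start at 0 and the error lines are exact 95% binomial intervals. The share is 2.20% for genes at 0 and between 84.7% and 91.3% for the ranges above RPKM 1.

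Some high genes had no mark nearby. Of 1052 coding genes above RPKM 10, 64 had no peak within 5 kb of a start (6.08%), and 12 of these are predicted Gm genes. Among the others were Spp1, Myl9, Mfap4 (46.4), Actg2, the plasma glutathione peroxidase Gpx3 (33.7), Igfbp5, Acta1, tenascin C (Tnc, 23.9) and Igfbp4, together with Lyz2, Laptm5, Fcer1g and Tyrobp. By list, 27 of 36 matrix glycoproteins above RPKM 1 had a peak within 1 kb and 1 of 6 IGF binding proteins, against all 78 ribosomal proteins that could be placed, 65 of 66 oxidative phosphorylation subunits and 34 of 37 stress fibre genes.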

How the data were processed

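Untreated MEFs were represented by 1 RNA library and 1 H3K4me3 ChIP library. The authors mapped the RNA reads to mm9 with TopHat and computed the deposited RPKM per RefSeq transcript with their own script, in 2 columns per library (R1 and R2) whose difference is not described. The deposited values run a median of 85.6 times higher (5166 values, 83.4 to 89.9 between libraries) than the study's supplementary RPKM, so the mean of R1 and R2 was divided by that factor, and per symbol the row with the highest mean was kept. The factor rests on all 4 RNA libraries, and the untreated values on 1. The deposited table holds no counts, and the transcript lengths behind its RPKM were not in the sources used here. Counts were therefore not recovered, and no counting error could be given for a gene. How reads that map to several copies or overlapping genes were assigned is not given in the sources used here.

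The ChIP reads were mapped to mm9 with Bowtie and peaks called with MACS by the authors in 1 library. The deposited list holds 11157 peaks, each with its count of tags, fold enrichment (a ratio), a score from the log10 of its p and an FDR in percent, and all were used. A gene had the mark when a peak lay within 1 kb of any of its GENCODE vM1 (mm9) transcript starts. Promoters came from RefSeq (GRCm38.p6), for 75.9% of symbols.

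The 56 gene lists (1212 genes, of which 1201 had a row) and the members were chosen with earlier results of these data known. Of each list the text names the highest genes and those next to RPKM 1. Most ribosomal protein and oxidative phosphorylation genes above RPKM 50, and some genes next to RPKM 1, are left out for length, and other list members are named for their role. The 25 highest symbols, the 10 highest noncoding ones, the markers and the 3 genes whose columns differed most are named as well, except for some genes that are not reported here. Nothing was tested, since each condition has 1 library. The steps were tested on simulated data. Python 3.11.15, pandas, numpy and scipy were used.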

Additional observations from a re-analysis of the deposited data

How the results depend on the processing

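No paired analysis was possible because each condition has 1 library and no test was made. The count of genes above the threshold, 6444, ranged from 6208 with coding entries alone to 6936 with the rows of a symbol summed, and was 8620 above RPKM 0.5 and 2148 above RPKM 5. Above RPKM 5, 428 of the listed genes remained by count, against 696 above RPKM 1, and 7 of the markers of other cell types against 23. The share of the summed RPKM in the 100 highest genes was 42.4% in column R1 alone and 40.7% with rows summed. The share of all lists together, 43.6%, was 41.7% with rows summed and 44.6% with coding entries alone. The lowest rank of the 5 fibroblast markers, 453 for Col3a1, was 468 in column R2 alone, 596 with rows summed and 428 with coding entries alone. The share of genes above the threshold with an H3K4me3 peak, 90.0%, was 88.1% above RPKM 0.5, 91.6% above RPKM 5, 91.4% with a window of 5 kb, and 61.9% with peaks of at least 40-fold enrichment. It was 86.6% with only the 5′ end of a gene as its start, an alternative chosen after seeing the data. For genes at 0 the share was 3.70% with a window of 5 kb and 0.854% with peaks of at least 40-fold enrichment. The columns, the choice of row, the scale factor and the entries left 329 of 335 list counts within 1.5 times. Levels near RPKM 1, and copies of abundant genes, are the least certain, and without replicates no spread between cultures is known.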

Other observations

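Of the 100 highest symbols 31 were on none of the gene lists. The genes named here are on no list either, were chosen after their values were seen, and are not all among those 100. The calcium-binding proteins S100a11 and S100a6 had RPKM 218 and 151. The antiviral membrane proteins Ifitm3 and Ifitm2 had 160 and 83.2. The stress-response gene Nupr1 was at 164 and the mitochondrial leucyl-tRNA synthetase Lars2 at 355 (402 in R1 and 309 in R2). The stress-response factor Atf5 was at 84.9, and the mesenchymal surface gene Cd248 (endosialin) at 64.3. The chaperones Hspa8 and Hsp90ab1 were at 95.6 and 55.5. The retinoic acid-binding protein Crabp1 was at 59.5.

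The Hist1h2a genes encode replication-dependent histones, whose transcripts mostly lack a poly(A) tail, and were also chosen after their values were seen. Of these 12 genes 9 were above RPKM 50, with a median of 70.2, a highest value of 86.4 at Hist1h2ah (51.3 in R1 and 122 in R2) and a lowest of 13.3. The columns differed, since 5 of the 12 were above RPKM 50 in R1 and 10 in R2, and R2 was over 2 times R1 for 9. Their sequences are near-identical, and the columns were far apart for Hist1h2ak (22.2 in R1 and 99.1 in R2) and Hist1h2an (27.7 and 111).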
